A study of Mus musculus with 8 samples.

Results

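The 6 genes described here are *Spp1*, *Kndc1*, *Mgat4a*, *Phf11d*, *Ly75* and *Liph*. They were listed by name because each was strongly and very evenly higher in fetal ovaries that had lost *Bmpr1a* in their germ cells, and because none has an established role in meiosis. All 6 were counted and all 6 passed the filter on low counts, out of 25239 gene symbols counted and 14249 genes tested. The difference between genotypes in these genes is therefore what selected them, and it is given as a description with no test. Two-sided tests from a fit over all genes are given only for other genes: their relatives, their neighbours on the chromosome and the markers of cell types and programmes.

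The study removed the type I BMP receptor from germ cells to ask what BMP signalling does as ovarian germ cells leave the pluripotent state and enter meiosis. Whole E14.5 fetal ovaries of C57BL/6 mice were profiled by strand-specific RNA-seq, with 4 libraries from control embryos (Bmpr1a fl/fl) and 4 from conditional knockout embryos (Bmpr1a fl/fl; Oct4-Cre Cre/WT, hereafter cKO). Ovaries of 8 embryos per genotype, drawn from 6 litters, were pooled into these libraries, so each library stands for a pool and not for 1 embryo. Every dam received 1 mg 4OHT, the active form of tamoxifen, and 0.5 mg progesterone daily from 9.5 to 11.5 dpc, so controls were exposed to the drugs as well, whereas Cre was carried by cKO embryos alone. Cre in this line is driven by *Oct4* and switched on by 4OHT, a design in which germ cells lose the receptor and somatic cells of the ovary keep it. The libraries held 10622684 to 15365052 counts in controls and 8562961 to 14887102 in cKO. *Bmpr1a* itself stood at 199 to 236 CPM (counts relative to the TMM-scaled size of each library) in controls and 185 to 209 in cKO, which overlap. A count per gene over whole ovaries does not check the deletion, since somatic cells keep the gene. *Zglp1*, which germ cells switch on in response to BMP, stood at 5.23 to 9.36 CPM in controls and 1.78 to 3.34 in cKO, without overlap. In bulk tissue, more cells of a type and more RNA per cell cannot be told apart, and this holds for every difference below.

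The 6 genes act in unrelated places. *Spp1* encodes osteopontin, a secreted acidic phosphoprotein of bone matrix and of activated macrophages, which binds integrins and CD44. *Kndc1* encodes a brain-enriched protein with KIND domains and a RasGEF domain, the module that loads RAS-type GTPases with GTP, and is known for restraining dendrite growth of neurons. *Mgat4a* encodes a Golgi enzyme that adds a branch to N-glycans, the sugar trees carried by most secreted and membrane proteins. *Phf11d* is a member of a tandem cluster of mouse genes for PHD zinc finger proteins. *Ly75* encodes DEC-205, an endocytic receptor of the mannose receptor family, best known from dendritic cells and thymic epithelium. *Liph* encodes a membrane-associated phospholipase that releases lysophosphatidic acid (LPA), a lipid signal read by G protein-coupled receptors, and is known from human hair loss.

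Promoter sequence was available for all 6 genes, as windows from 250 bases before to 50 bases after each RefSeq start, on build GRCm38.p6. The letters GCGGGAA, a sequence of the kind bound by E2F-family factors, were present on either strand in the windows of *Kndc1*, *Mgat4a* and *Phf11d*, 3 of the 6 genes. They were present in 4.63% of all 32544 windows, in 9.89% of the tested genes that had a window and in 9.29% of the upregulated genes that had a window. These 3 stretches are shown because the same letters lie within 76 bases upstream of the start in each, with the match in capitals and 30 bases on each side. They run 5′ to 3′ on the strand that carries the match: *Kndc1* at chr7:139894639-139894705 on the plus strand, *Mgat4a* at chr1:37541056-37541122 on the minus strand and *Phf11d* at chr14:59365500-59365566 on the plus strand.

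Kndc1: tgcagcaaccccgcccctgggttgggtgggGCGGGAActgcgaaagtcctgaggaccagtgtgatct
Mgat4a: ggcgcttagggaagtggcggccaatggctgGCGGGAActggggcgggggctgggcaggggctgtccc
Phf11d: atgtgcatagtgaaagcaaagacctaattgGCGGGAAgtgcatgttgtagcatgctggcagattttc

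In *Kndc1* and *Mgat4a* the match lies on the strand of the gene, and in *Phf11d* on the opposite strand. In *Kndc1* it overlaps a GC box, GGGCGG, and in *Mgat4a* a GC box follows a few bases downstream. *Phf11d* has no GC box in its window. Apart from the match the stretches share little, and they differ in base composition: the *Mgat4a* window holds 35 CpG dinucleotides, that of *Kndc1* 4 and that of *Phf11d* 3.

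The octamer ATGCAAAT, the classical site of POU-domain factors such as OCT4, was present on either strand in windows of *Liph* and *Spp1*. It was found in 1.75% of all windows, in 1.74% of tested genes and in 5.01% of upregulated genes with a window. In *Liph* it begins 87 bases before the start, at chr16:21995592-21995659 on the minus strand, the strand of the gene. In *Spp1* it lies in the window of the second, downstream start listed by RefSeq, at chr5:104435952-104436019 on the plus strand, and not in the window of the first start. The octamer is in capitals, with 30 bases on each side.

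Liph: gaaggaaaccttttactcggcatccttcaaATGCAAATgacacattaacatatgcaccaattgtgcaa
Spp1: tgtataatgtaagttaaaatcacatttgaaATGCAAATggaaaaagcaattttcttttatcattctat

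A match is a description of the letters and not of a bound site. *Pou5f1*, the gene of OCT4, was at 43.3 ± 15.2 CPM in controls and 63.7 ± 7.47 in cKO (SD, n = 4; Log2FC = 0.58, SE 0.18, edgeR FDR = 0.0235), with libraries that overlap between genotypes. *Ly75* held neither GCGGGAA nor the octamer.

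*Spp1*, at chr5:104435118-104441050 on the plus strand, had few counts in control ovaries. Its level was 1.40, 1.95, 1.78 and 1.64 CPM in control libraries 1 to 4 and 19.6, 16.7, 20.7 and 21.5 CPM in cKO libraries 1 to 4. Every cKO library lay above every control library, and the lowest cKO library was 8.59-fold above the highest control. The means were 1.69 ± 0.232 and 19.6 ± 2.10 CPM (SD, n = 4), an 11.6-fold difference, with a fitted Log2FC of 3.54 (SE 0.15). These means rest on 84 counts in all control libraries together and 904 in all cKO libraries. In controls the spread of *Spp1* between libraries, a coefficient of variation (CV) of 13.8%, was below the 22.1% that counting alone gives at this depth. A gene model of unconfirmed status, *Gm42793*, overlaps exons of *Spp1* on the same strand and shares 8.55% of its 75-base stretches.

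*Kndc1*, at chr7:139894696-139941537 on the plus strand, was likewise low in controls. It stood at 1.48, 1.86, 2.43 and 2.21 CPM in controls 1 to 4 and at 19.3, 24.1, 27.9 and 22.3 CPM in cKO 1 to 4. The genotypes were separated by a gap of 7.93-fold between the lowest cKO and the highest control library. Mean levels were 1.99 ± 0.417 and 23.4 ± 3.61 CPM (SD, n = 4), or 11.7-fold higher in cKO, and the fitted Log2FC was 3.55 (SE 0.16). The control spread of 20.9% matched that of counting, 20.6%, whereas the cKO spread of 15.4% exceeded the 6.34% of counting.

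*Mgat4a*, at chr1:37439340-37541016 on the minus strand, was already present in controls and had the tightest cKO values of the 6 genes. Control libraries 1 to 4 held 7.39, 9.99, 8.89 and 9.20 CPM, and cKO libraries 1 to 4 held 35.6, 36.0, 33.8 and 39.0 CPM. No library of either genotype came near the other, the lowest cKO being 3.38-fold above the highest control. The mean went from 8.87 ± 1.09 to 36.1 ± 2.19 CPM (SD, n = 4), 4.07-fold, with a Log2FC of 2.03 (SE 0.10). The cKO libraries differed from each other by a CV of 6.06%, near the 5.06% that counting gives. The gene models *4930594C11Rik* and *Gm43213* lie within *Mgat4a* on the same strand, with no overlap of exons. *4930594C11Rik* was called an upregulated DEG, at 0.43 CPM in controls and 1.33 in cKO (Log2FC = 1.5, SE 0.39, edgeR FDR = 0.00938). It lies inside a gene chosen for this contrast, so this call is not independent support. Whether its reads come from *Mgat4a* RNA was not tested.

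*Phf11d*, at chr14:59347407-59365470 on the minus strand, had the widest relative spread among cKO libraries. Levels of 2.14, 1.68, 2.34 and 1.89 CPM were measured in controls 1 to 4, and of 14.9, 23.0, 24.2 and 26.2 CPM in cKO 1 to 4. Library cKO 1 was the low one, yet it was 6.36-fold above the highest control. The means of 2.01 ± 0.287 and 22.1 ± 4.97 CPM (SD, n = 4) differ 11-fold, and the Log2FC was 3.47 (SE 0.19). The *Phf11* genes are close copies: 5.22% of the 75-base stretches of *Phf11d* occur in another gene, 215 of these 246 in *Phf11c*. How reads from such stretches were assigned was not tested.

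*Ly75*, at chr2:60292103-60383303 on the minus strand, had the most even control values. They were 8.05, 7.16, 7.11 and 7.19 CPM in controls 1 to 4, and cKO libraries 1 to 4 held 24.2, 30.7, 32.4 and 27.5 CPM. The groups did not overlap, with a gap of 3.0-fold. The means were 7.38 ± 0.448 and 28.7 ± 3.63 CPM (SD, n = 4), 3.89-fold apart, and the Log2FC was 1.96 (SE 0.11). *Gm13571* runs antisense to *Ly75* across its exons. The library kit keeps strand, but which strand was counted is not given in the sources used here.

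*Liph*, at chr16:21953817-21995663 on the minus strand, reached the highest CPM of the 6 genes in cKO and varied most among controls. Controls 1 to 4 held 4.02, 6.37, 7.39 and 3.85 CPM, and cKO 1 to 4 held 33.5, 44.4, 43.8 and 47.3 CPM. The lowest cKO library was 4.53-fold above the highest control. The means of 5.41 ± 1.75 and 42.2 ± 6.05 CPM (SD, n = 4) are 7.81-fold apart, with a Log2FC of 3.01 (SE 0.17). The control CV of 32.4% was well beyond the 12.6% of counting.

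**Figure D1:**
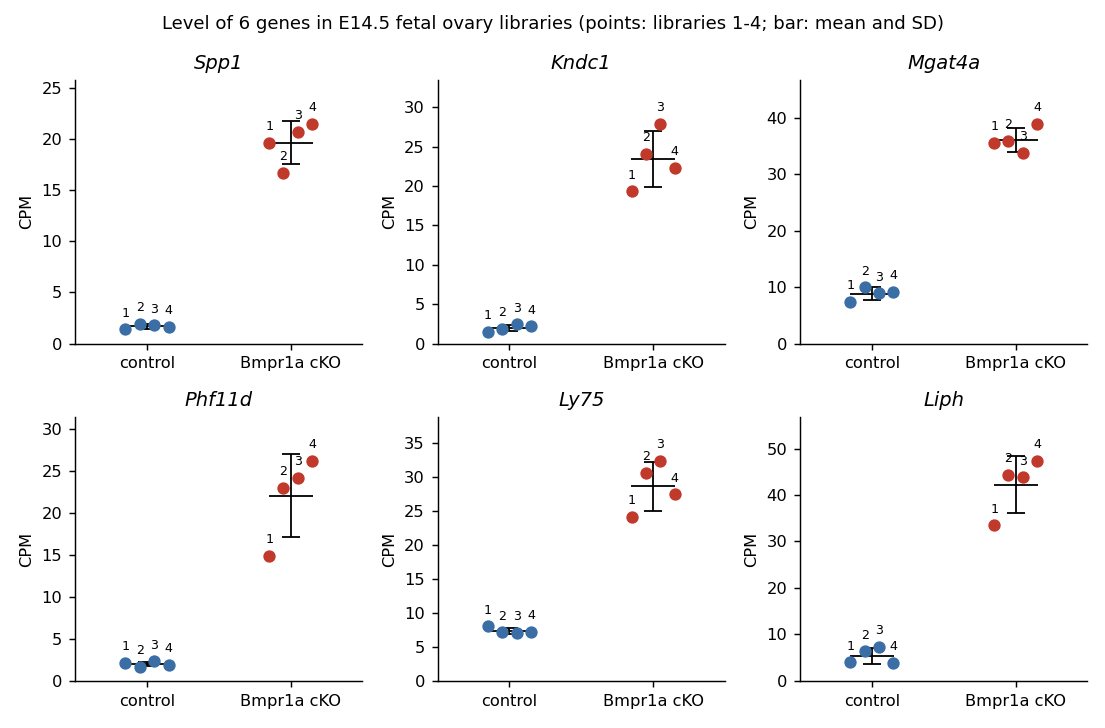
CPM of each gene (vertical axes, each from 0) in the 4 control libraries (blue) and the 4 Bmpr1a cKO libraries (red), with library numbers above the points, and the mean and SD as black bars. In all 6 panels every red point lies above every blue point, by a gap that runs from 3.0-fold in *Ly75* to 8.59-fold in *Spp1*.

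On the CPM scale, which is not corrected for gene length, the genes with the fewest counts in controls had the largest fold. *Spp1*, *Kndc1* and *Phf11d* stood at 1.69 to 2.01 CPM in controls and were 11 to 11.7-fold higher in cKO, while *Mgat4a* and *Ly75* stood higher in controls and differed 3.89 to 4.07-fold. *Liph* lay between these. In the fit over all genes, 871 genes were upregulated DEGs and 578 downregulated (absolute Log2FC over 0.5 and FDR under 0.05), which is 10.2% of the genes tested, 6.11% upward and 4.06% downward. Among the 871, Log2FC ranked *Kndc1* 26, *Spp1* 27, *Phf11d* 29, *Liph* 43, *Mgat4a* 97 and *Ly75* 106. By the F statistic, which weighs the difference against the spread between libraries, the order over 14249 genes was *Spp1* 2, *Kndc1* 4, *Mgat4a* 5, *Phf11d* 9, *Ly75* 10 and *Liph* 11. All 6 genes had a smaller rank number by F than by Log2FC, although these rankings cover different sets of genes. Complete separation upward, seen in all 6, was seen in 16.1% of tested genes. Because the genes were chosen from this contrast, nothing is read from these ranks and counts.

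Compared per length of exon, as CPM per kb, the order of the genes differed between genotypes. In controls *Liph* (1.23), *Ly75* (1.07) and *Spp1* (1.03) led, and libraries of neighbours in this order overlapped. *Mgat4a* (0.689), *Phf11d* (0.447) and *Kndc1* (0.186) followed, each without overlap with the gene before it. In cKO *Spp1* was at 11.9 and *Liph* at 9.60 CPM per kb, which overlapped, then *Phf11d* at 4.91 and *Ly75* at 4.16, which overlapped as well. *Mgat4a* at 2.80 and *Kndc1* at 2.19 CPM per kb came last, without overlap. *Kndc1*, with 10709 bases of exon, was thus the lowest of the 6 in both genotypes on this scale, although its CPM in cKO exceeded that of *Spp1*.

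The scaling of the libraries mattered for the size of these differences but not for their direction. When libraries were scaled to the summed counts of 8 germ cell markers in place of TMM (edgeR's trimmed mean scaling), the Log2FC of the 6 genes was 1.57 for *Ly75* and 1.66 for *Mgat4a*, 2.62 for *Liph*, 3.05 for *Phf11d*, and 3.17 for *Spp1* and for *Kndc1*. That scaling moved the median of all genes from 0.00 to -0.37, so relative to the median the values changed little. It also turned the split of DEGs from 871 up and 578 down to 327 up and 3461 down.

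Divided by *Ddx4*, the germ cell marker also called *Mvh*, the 6 genes remained far apart between genotypes. *Ddx4* stood at 142 ± 21.9 CPM in controls and 153 ± 32.3 in cKO (SD, n = 4; edgeR FDR = 0.561). The log2 ratio to *Ddx4* was higher in cKO by 3.45 for *Spp1*, 3.48 for *Kndc1*, 1.94 for *Mgat4a*, 3.34 for *Phf11d*, 1.86 for *Ly75* and 2.92 for *Liph*. The spread of *Phf11d* and *Liph* among cKO libraries was smaller after division by *Ddx4*. The *Phf11d* to *Ddx4* ratio was 0.138 to 0.152 in cKO against 0.0111 to 0.0167 in controls, and its CV among cKO libraries was 4.26%, compared with 22.5% for *Phf11d* CPM. For *Liph* the CV was 8.63% in place of 14.3% in cKO and 17.6% in place of 32.4% in controls. *Phf11d* in controls went the other way, from 14.3% to 17.1%. Over 12 combinations of gene and genotype the CV was lower after division by *Ddx4* in 4, and *Spp1* in cKO went from 10.7% to 27.3%. Division by the summed macrophage markers lowered the CV in 7 of the 12, among them *Phf11d* in cKO (to 16.1%) and *Liph* in cKO (to 11.4%). The germ cell marker sum lowered it in 6, with *Phf11d* in cKO at 6.87% and *Liph* in cKO at 4.38%. Over the pregranulosa, stromal and endothelial sums it was lower in 1, 3 and 3 of the 12. Over these sums *Phf11d* in cKO was at 29.4%, 27.2% and 27.8%, and *Liph* in cKO at 21.7%, 20.7% and 19.9%. Each CV rests on 4 libraries and the contrast between genes was noticed in these values, so it is a description.

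Library cKO 1 held the lowest cKO value for 4 of the 6 genes (*Kndc1*, *Phf11d*, *Ly75* and *Liph*) and also the lowest summed level of germ cell markers among cKO libraries, 672 CPM against 913 to 1050 in the others. It was also the lowest cKO library in the sums of macrophage markers (54.9 CPM against 59.9 to 75.8), pluripotency genes (408 against 513 to 528) and interferon-stimulated genes (158 against 164 to 185), and the highest in those of pregranulosa (1580 against 1290 to 1410) and stromal markers (3300 against 2650 to 3010). Leaving out each library in turn kept the Log2FC between 3.46 and 3.61 for *Spp1*, 3.43 and 3.63 for *Kndc1*, 1.95 and 2.08 for *Mgat4a*, 3.37 and 3.61 for *Phf11d*, 1.90 and 2.03 for *Ly75*, and 2.84 and 3.18 for *Liph*. The 6 genes were chosen for even differences over these same libraries, so these ranges are a description and not a check.

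Around each gene, a list of relatives was examined in the fit over all genes: paralogs, partners, and enzymes or receptors of the same pathway. Of 84 relatives counted, 63 were tested and 6 were DEGs, or 9.52%, against 10.2% of all genes tested. Of these, 3 were upregulated in cKO and 3 downregulated, and the median Log2FC of the relatives was -0.02, where that of all genes was 0.00. The share of relatives that changed was near the background. Under germ cell marker scaling 20 relatives were DEGs, 2 up and 18 down, where 3788 of all genes were.

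For *Spp1* the relatives were its bone-matrix paralogs and its receptors. *Ibsp*, *Dmp1*, *Dspp* and *Mepe*, the other SIBLING proteins, were all below the filter and summed to at most 0.411 CPM in any library, so osteopontin was the only family member above that level. Of the receptors, 9 of 10 were tested and 1 was a DEG (11.1%, against 10.2% of all genes tested). *Itgb3*, the beta subunit of the integrin that binds osteopontin together with *Itgav*, stood at 22.6, 26.4, 35.5 and 23.4 CPM in controls and 63.9, 85.6, 82.8 and 82.3 CPM in cKO. It rose 2.91-fold (Log2FC = 1.56, SE 0.12, edgeR FDR = 5.48e-07), and no cKO library overlapped a control. Its partner *Itgav* was at 105 ± 11.8 and 108 ± 4.61 CPM (FDR = 0.687) and *Cd44*, the other receptor type, at 45.6 ± 6.05 and 43.9 ± 5.02 CPM (FDR = 0.701). *Itgb5*, an alternative partner of *Itgav*, had a Log2FC of -0.26 (SE 0.07, FDR = 0.00895), under the fold threshold. Thus *Itgb3* was the receptor gene that passed both thresholds.

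For *Kndc1* none of the 3 other tested KIND domain genes was a DEG. *Spire1* and *Spire2*, which nucleate actin filaments, had Log2FC of -0.05 and 0.00, and the phosphatase gene *Ptpn13* -0.25 (SE 0.08, edgeR FDR = 0.0301), under the fold threshold. Among 21 tested exchange factors for RAS-type GTPases, 1 was a DEG (4.76%, against 10.2% of all genes tested). This was *Sos1*, the exchange factor that couples receptor tyrosine kinases to RAS, at 114 ± 8.00 CPM in controls and 185 ± 11.8 in cKO (SD, n = 4; Log2FC = 0.70, SE 0.07, FDR = 2.52e-06). Under germ cell marker scaling its Log2FC was 0.33 and it no longer passed (FDR = 0.158). Its paralog *Sos2* was at 74.2 ± 2.23 and 82.0 ± 3.56 CPM (FDR = 0.0715). Other exchange factors stood lower in every cKO library, under the fold threshold. These were *Rapgefl1* (Log2FC = -0.45, edgeR FDR = 0.000775), *Rapgef6* (-0.29, FDR = 0.00176), *Rasgrp4* (-0.41, FDR = 0.0394) and *Rapgef2* (-0.18, FDR = 0.0403). Of the 21, 7 had a Log2FC above 0.

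Of the 15 tested enzymes and transporters around *Mgat4a*, 2 were DEGs, both downregulated. They were 1 of 6 branching enzymes (16.7%) and 1 of 9 other processing genes (11.1%), against 10.2% of all genes tested. The closest paralog of *Mgat4a*, *Mgat4b*, which performs the same reaction, was far more abundant. It stood at 86.1 ± 6.18 CPM in controls and 91.1 ± 2.46 in cKO (FDR = 0.367). *Mgat1*, *Mgat2*, *Mgat3* and *Mgat5*, which start, extend, bisect or further branch the same glycans, had Log2FC between -0.11 and 0.05, none a DEG. *Mgat5b*, a paralog of *Mgat5*, fell from 2.90 ± 0.913 to 1.08 ± 0.205 CPM (SD, n = 4; Log2FC = -1.39, SE 0.27, edgeR FDR = 0.00124). *Fut8*, which adds the core fucose, fell from 94.1 ± 7.91 to 65.8 ± 1.49 CPM (Log2FC = -0.52, SE 0.07, FDR = 4.4e-05) and lay just past the fold threshold, which it no longer passed without control 4 (Log2FC = -0.47). *B4galt1*, which extends the branches with galactose, had a Log2FC of 0.37 (SE 0.05, FDR = 9.29e-05), below the fold threshold but without overlap between genotypes (101 ± 2.54 and 131 ± 3.25 CPM). *Man2a1*, a mannosidase gene, also stood higher in every cKO library, with a Log2FC of 0.20 (SE 0.06, FDR = 0.0259). Its paralog *Man2a2* went the other way, with a Log2FC of -0.23 (SE 0.07, edgeR FDR = 0.02), under the fold threshold. On the per-gene CPM scale, the sum of *Mgat4a* and *Mgat4b* was dominated by *Mgat4b* in both genotypes.

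*Phf11d* stood alone in its cluster. *Phf11a*, *Phf11b* and *Phf11c* were under the filter and summed to between 0.136 and 0.446 CPM in any library, with *Phf11a* at 0 counts in all 8 libraries. A gene with 0 counts may be present at up to 3 counts, or 0.189 to 0.357 CPM in these libraries, and this covers counting error only. *Setdb2*, the histone methyltransferase gene next to the cluster, was likewise below the filter, at 0.442 CPM in controls and 0.250 in cKO.

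Around *Ly75* none of the other 4 mannose receptor family genes was a DEG. *Mrc1*, the macrophage mannose receptor, was at 7.24 ± 1.41 and 7.17 ± 1.36 CPM (SD, n = 4; edgeR FDR = 0.976). The collagen receptor *Mrc2* stood at 110 ± 9.32 and 106 ± 15.5 CPM (FDR = 0.631), and the phospholipase receptor *Pla2r1* at 38.7 ± 2.49 and 39.95 ± 6.02 CPM (FDR = 0.779). *Cd302*, a small family member whose gene adjoins *Ly75*, stood at 5.28 ± 0.286 and 6.83 ± 0.648 CPM (Log2FC = 0.37, SE 0.13, FDR = 0.0465), under the fold threshold but without overlap between genotypes.

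Around *Liph* the lipases and the LPA pathway were listed. Of its lipase family only *Lpl* and *Lipg* passed the filter. *Lipg*, endothelial lipase, fell from 18.2 ± 1.62 to 12.3 ± 1.61 CPM (SD, n = 4; Log2FC = -0.57, SE 0.11, edgeR FDR = 0.00133), a call that was lost without cKO 4 (Log2FC = -0.47), and *Lpl* was at 59.0 ± 6.66 and 61.1 ± 4.75 CPM (FDR = 0.695). Among 9 tested genes for LPA receptors and LPA metabolism, 1 was a DEG (11.1%, against 10.2% of all genes tested). *Lpar3*, an LPA receptor, stood at 0.575, 0.354, 0.936 and 0.441 CPM in controls and 2.14, 1.86, 3.03 and 2.25 CPM in cKO, and was 4.03-fold higher (Log2FC = 2.01, SE 0.30, FDR = 0.000173), at a level that remained far below *Liph*. *Lpar6*, the receptor paired with *Liph* in hair follicles, was at 12.0 ± 0.638 and 11.2 ± 0.956 CPM (FDR = 0.546). *Enpp2*, autotaxin, the secreted enzyme that makes most extracellular LPA, was at 68.0 ± 8.22 and 71.1 ± 12.1 CPM (FDR = 0.723).

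**Figure D2:**
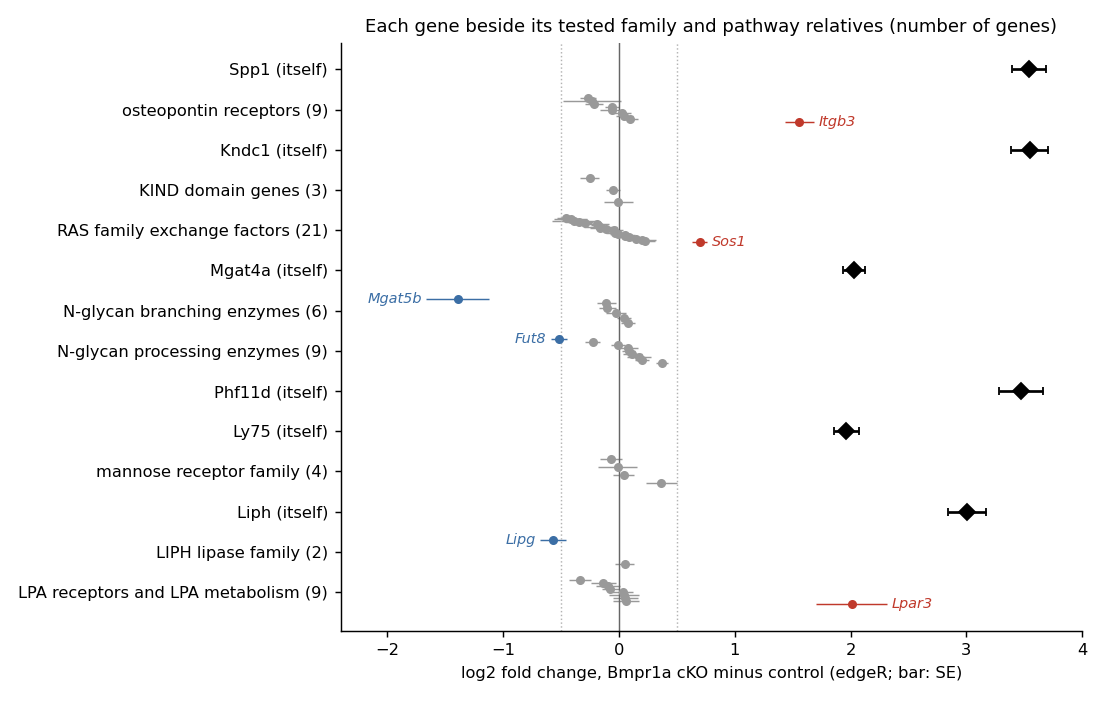
Log2 fold change of cKO over control (horizontal axis, bars show SE) for the 6 genes (black diamonds) and for their 63 tested relatives, a row per list with the number of genes, with upregulated DEGs in red, downregulated DEGs in blue, other genes in grey and the fold threshold of 0.5 dotted. *Itgb3*, *Sos1* and *Lpar3* lie to the right, *Mgat5b*, *Fut8* and *Lipg* to the left, and the other relatives cluster near 0.

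On the chromosome, the 2 nearest protein-coding genes on each side were examined, which gave 24 positions. Of these, 21 were counted, 12 were tested and 2 were upregulated DEGs, or 16.7%, with none downregulated, against 6.11% upregulated over all genes, and 12 genes are few. *Utf1*, a chromatin factor gene of pluripotent cells, lies 2.252 kb from *Kndc1* and stood at 17.9 ± 4.96 CPM in controls and 37.8 ± 3.32 in cKO (SD, n = 4; Log2FC = 1.10, SE 0.15, edgeR FDR = 6.12e-05). The study had already reported *Utf1* as upregulated in these same libraries. The gene model *2010300C02Rik*, 70.661 kb from *Mgat4a*, went from 6.18 to 12.9 CPM on average (Log2FC = 1.08, FDR = 8.46e-05). *Unc50*, which lies 0.216 kb from *Mgat4a*, was at 30.2 and 30.4 CPM (FDR = 0.913). The other tested neighbours, *Coa5* and *Tsga10* by *Mgat4a*, *Pkd2* by *Spp1*, *Cd302* and *Pla2r1* by *Ly75*, and *Tmem41a*, *Map3k13*, *Senp2* and *Igf2bp2* by *Liph*, had Log2FC between -0.36 and 0.41, none a DEG. *Phf11d* had no tested neighbour.

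**Figure D3:**
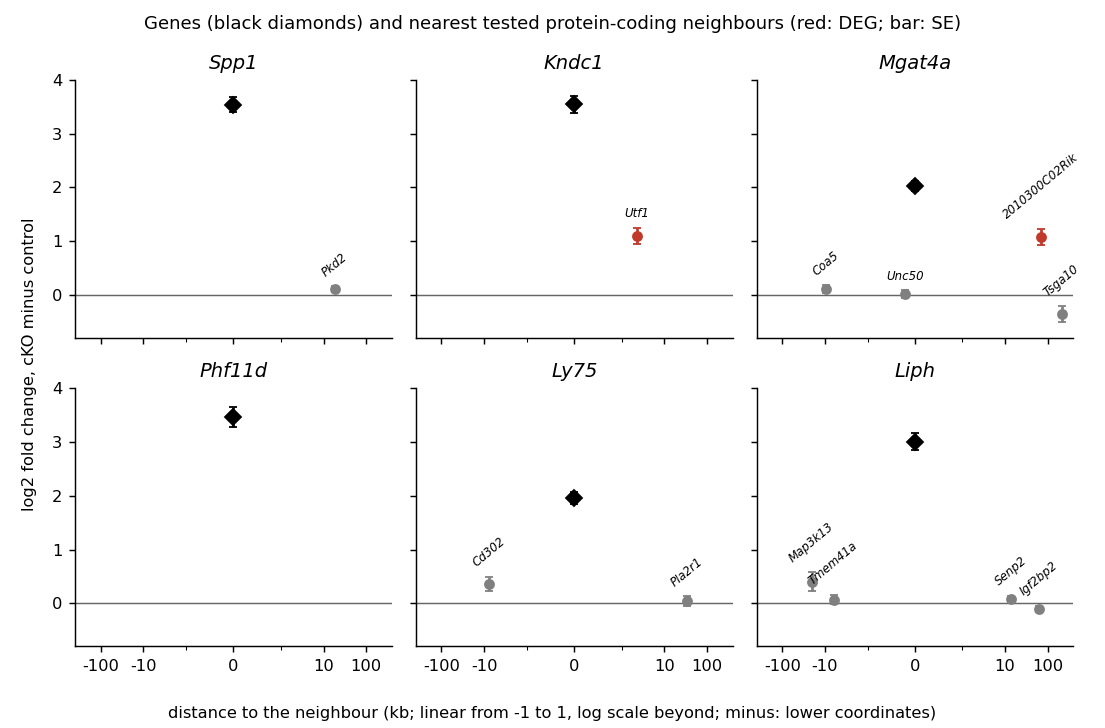
Log2 fold change of cKO over control (vertical axis, bars show SE) of each gene (black diamond at 0) and of its tested neighbours against their distance in kb, on a scale that is linear within 1 kb and logarithmic beyond it, with DEGs in red. *Utf1* near *Kndc1* and *2010300C02Rik* near *Mgat4a* are the red points, and the other 10 neighbours lie between -0.36 and 0.41.

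Since *Spp1* and *Ly75* are widely used as genes of myeloid cells, marker lists of other cell types were set beside them. Of 12 macrophage markers, 10 were tested, and 5 of these were upregulated DEGs and 5 were not, with a median Log2FC of 0.60, where 6.11% of all genes tested were upregulated. The 5 were *Adgre1* (3.52 and 5.98 CPM in controls and cKO), *C1qa* (2.83 and 4.54), *C1qb* (4.80 and 7.90), *C1qc* (3.61 and 6.65) and *Tyrobp* (1.25 and 2.42). The summed level of the 12 was 42.2 to 52.6 CPM in controls and 54.9 to 75.8 in cKO, without overlap. *Csf1r*, the most abundant of the list, was at 11.5 ± 1.03 and 14.8 ± 1.19 CPM (SD, n = 4; Log2FC = 0.37, edgeR FDR = 0.0142), under the fold threshold, while *Mrc1* had a Log2FC of -0.01 and *Cd14*, below the filter, was at 0.373 and 0.349 CPM. The ratio of *Spp1* to *Csf1r* was 0.127 to 0.190 in controls and 1.24 to 1.36 in cKO. The ratio of *Spp1* to the macrophage sum was 0.0331 to 0.0454 and 0.273 to 0.358. Whether macrophages hold part of the *Spp1* RNA was not tested. Of bone-forming cell markers, *Bglap* and *Sp7* were under 1 CPM in both genotypes, *Runx2* was at 1.64 and 1.70 CPM (FDR = 0.95), and *Alpl*, which primordial germ cells also express, rose from 55.0 ± 14.9 to 79.4 ± 11.4 CPM (Log2FC = 0.54, FDR = 0.0104).

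Dendritic cell markers were set beside *Ly75*. Of 8, only *Zbtb46* and *Batf3* were tested, and neither was a DEG. *Zbtb46*, a transcription factor gene that endothelium also expresses, was the abundant one, at 48.3 ± 3.58 CPM in controls and 45.6 ± 2.86 in cKO (SD, n = 4; Log2FC = -0.09, edgeR FDR = 0.408), and *Batf3* was at 1.75 and 1.39 CPM (Log2FC = -0.31, FDR = 0.352). *Ccr7* was at 0.323 and 0.60 CPM, below the filter. The summed level of the list was 47.4 to 55.4 CPM in controls and 45.0 to 51.6 in cKO, nearly all of it *Zbtb46*. *Cd209a* had 0 counts in every library, and *Itgax*, *Xcr1*, *Clec9a* and *Flt3* had means of at most 0.276 CPM in either genotype. The part of dendritic cells in the level of *Ly75* was not tested. Of 6 lymphocyte markers only *Ptprc* was tested (2.01 and 2.33 CPM, FDR = 0.532).

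The remaining lists describe the tissue. Germ cell markers summed to 610 to 817 CPM in controls and 672 to 1052 in cKO, with *Dazl*, *Dnd1* and *Tdrd5* upregulated and *Mael* and *Tdrd9* downregulated among 8. The share called was 62.5%, against 10.2% of all genes tested. Of 9 pregranulosa markers *Foxl2* was downregulated (11.1%), and all 9 had Log2FC below 0 (median -0.28). None of 7 stromal or 8 endothelial markers was a DEG, 1 of 8 mesonephric epithelium markers (*Gata3*) was downregulated, and neither of the 2 tested erythroid markers was a DEG. Whether these marker levels reflect cell composition, and what part composition plays in the levels of the 6 genes, was not tested.

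Mouse *Phf11* genes are known to respond to interferon in immune cells, and 15 interferon-stimulated genes were set beside *Phf11d*. Of these, 9 were tested and 2 were upregulated DEGs (22.2%, against 6.11% of all genes tested), with a median Log2FC of 0.16. A list of 9 genes is short for such a share. *Ddx58*, the gene of the RNA sensor RIG-I, stood at 21.8, 25.6, 29.7 and 17.8 CPM in controls and 85.3, 92.9, 95.5 and 97.7 CPM in cKO (Log2FC = 1.99, SE 0.11, edgeR FDR = 2.05e-08). *Oasl2* rose from 5.11 ± 0.458 to 9.46 ± 1.87 CPM (Log2FC = 0.89, FDR = 0.000489). The classical members *Isg15*, *Ifit1*, *Mx1*, *Oas1a* and *Usp18* were under 1 CPM in both genotypes, and *Irf7* did not pass the test (FDR = 0.629). The sum of the list, 86.0 to 97.2 CPM in controls and 158 to 185 in cKO, was thus mostly *Ddx58* in its difference.

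Of 16 pluripotency genes 11 were upregulated in cKO, with a median Log2FC of 1.04, where 6.11% of all genes tested were upregulated. Of 10 BMP response genes none was upregulated and 4 were downregulated (*Id1*, *Id4*, *Msx1* and *Msx2*), with a median of -0.39. Over all genes tested, 4.06% were downregulated. The study had already reported *Sox2*, *Nanog*, *Tcl1*, *Msx1* and *Msx2*, among others, as changed in these same libraries. The counts of both lists were therefore in part known in advance. *Tcl1*, an activator of AKT kinase and the pluripotency gene with the largest difference, stood at 4.22 ± 0.972 CPM in controls and 42.9 ± 6.07 in cKO (Log2FC = 3.36, SE 0.14, FDR = 8.43e-10), a difference of the size seen in *Kndc1*, *Spp1* and *Phf11d*.

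**Figure D4:**
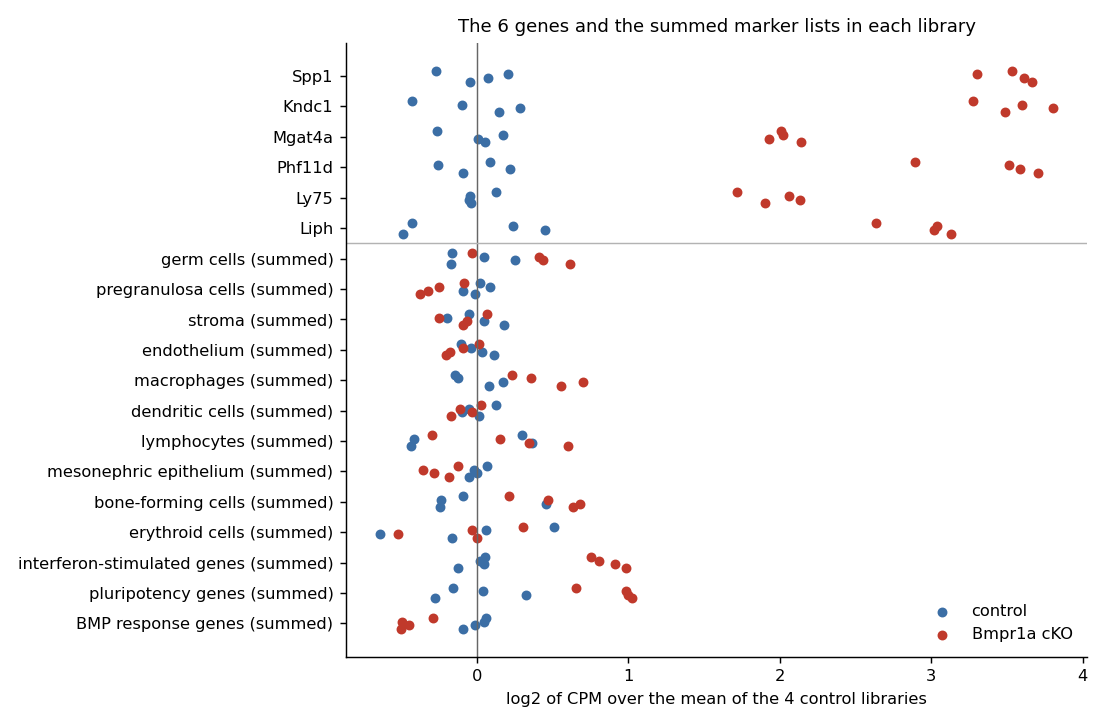
Log2 of CPM relative to the mean of the control libraries (horizontal axis) for the 6 genes (top) and for the summed level of each marker list (below the line), with a point per library, control in blue and cKO in red. The 6 genes in cKO lie well to the right of every list sum, of which the pluripotency and interferon-stimulated lists reach furthest. The 6 genes were chosen for this difference, whereas a sum joins genes that rise and genes that fall. Single genes within a list, such as *Tcl1*, differ by as much as some of the 6.

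The genes whose log2 CPM was most like each of the 6 over the 8 libraries were taken by Pearson's r as a description, since any gene with a large and even difference between genotypes scores high and 461 to 589 genes had r above 0.95 with a given gene. Among the genes nearest to *Spp1* were *Mgat4a* and *AU018091* (r = 0.996 each), and among those nearest to *Mgat4a* were *AU018091* (r = 0.997) and *Spp1* (r = 0.996). *Spp1* and *Mgat4a* thus shared *AU018091* and were near each other. *Kndc1* was nearest to *Tcl1* (r = 0.997), *Cenpt* and *Myo5c* (r = 0.996 each). *Phf11d* was nearest to *Itgam* (r = 0.999), *Ggt1* and *Naa25* (r = 0.996 each). *Ly75* was nearest to *Pdk1* (r = 0.999), *Aurkb* (r = 0.997) and *B4galt1* (r = 0.996), and *Liph* to *Usp26*, *Cdh1* and *Zscan5b* (r = 0.998 each).

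*Itgam* encodes the integrin subunit CD11b, which marks myeloid cells, and its level was 1.64, 1.33, 1.59 and 1.39 CPM in controls and 7.03, 9.28, 9.72 and 11 CPM in cKO, a 6.22-fold difference. The macrophage markers differed by less. Of 10 tested, 5 were upregulated, with a largest Log2FC of 0.98 (*Tyrobp*), while *Csf1r* was 1.29-fold higher and *Mrc1* at 0.991-fold. *Cdh1*, the gene of E-cadherin, which germ cells express, was 6.14-fold higher, at 7.47 to 13.4 CPM in controls and 47.6 to 67.2 in cKO. Like *Liph*, *Cdh1* was low in controls 1 and 4 and in cKO 1 relative to the other libraries of its genotype. Within a genotype, the deviations of the 6 genes from their group means were related only loosely: over the 15 pairs r ranged from -0.489 to 0.696 with a median of 0.341, and 11 pairs were positive.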

How the data were processed

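Whole-ovary RNA was profiled in 8 libraries (4 control, 4 cKO). Per the labels and submitters' processing notes, the authors trimmed reads with Trimmomatic 0.39, checked them with FastQC 0.11.9, and mapped and counted them per gene with STAR 2.5.2 on mm10. The deposited files hold raw counts per gene symbol. A deposited table of signal values, in which the authors divided each count by a factor per library (edgeR), was used only as an alternative. Counts were fitted here with edgeR 4.0.16 in R 4.3.3: filterByExpr, TMM, glmQLFit and glmQLFTest by genotype, two-sided, with Benjamini-Hochberg FDR over 14249 genes. DEGs had absolute Log2FC above 0.5 and FDR below 0.05. CPM used TMM-scaled library sizes. Replicates are pools, and no source here says which litters a pool holds, so FDR measures the spread between pools. Gene positions are from GENCODE vM21. The annotation named 24366 of the 25239 symbols.

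The 6 genes and all lists and motifs were chosen with earlier results of these data known. The genes named are the 6, relatives that were DEGs or had at least 1 CPM and are paralogs, the 2 nearest protein-coding genes per side, the 3 most alike genes, and the leading genes of each list, of which some are not reported here. *Irf7*, *Setdb2*, *Itgam* and *Cdh1* levels and the ratios to *Ddx4* were picked out after their values were seen. *Frmpd2* was not counted, and *Phf11* is an older name of *Phf11d*. Intervals from counts cover counting error only. Alternatives were scaling by RLE, by the upper quartile, by total count alone or by germ cell markers, other filters, DESeq2 1.42.0, limma-voom (limma 3.58.1), a replicate block and leaving out each library. The fit was checked on simulated counts.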

Additional observations from a re-analysis of the deposited data

Results flagged for a closer look

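In *Ly75*, control library 1 stood apart from the other control libraries at 8.05 CPM, where the others lay between 7.11 and 7.19 CPM. Its gap to the nearest library was 0.919 of the range of the control group. The distance is small beside the difference between genotypes, since the lowest cKO library held 24.2 CPM, and the spread of all 4 controls (CV 6.08%) was below the 10.5% that counting alone gives. Over 12 groups examined this was the single case, and chance gives about 1 such case in 20 groups.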

How the results depend on the processing

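The Log2FC of the 6 genes kept its sign under every alternative run. Scaling to germ cell markers gave 3788 DEGs in place of 1449 and 20 DEGs among the relatives (2 up and 18 down) in place of 6. Leaving out each library gave 1288 DEGs (without cKO 2) to 1627 (without cKO 1), and 5 to 7 DEGs among the relatives. DESeq2 gave 1348 DEGs. *Fut8* had a Log2FC of -0.47 without control 4, and *Lipg* of -0.47 without cKO 4, under the fold threshold in each case. From the deposited scaled table, on the log2(value + 0.5) scale, which understates low genes, the difference was 3.20 for *Spp1*, 3.26 for *Kndc1* and 3.14 for *Phf11d*. A fit with the replicate number as a block gave 1457 DEGs and 6 among the relatives. Same-numbered libraries deviated together only weakly (r of -0.087 to 0.198 over genes), 2 of 4 controls correlated best with their own number, and the numbers were not taken as pairs. The shift under germ cell marker scaling follows from dividing by a marker sum in which *Dazl*, itself higher in cKO, weighs most. Whether that sum tracks germ cell number was not tested. At 84 to 100 control counts in all, *Spp1*, *Kndc1* and *Phf11d* are measured in controls with a counting error of about 20% per library.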

Other observations

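Besides GCGGGAA and the octamer, 6 other short sequences were searched on both strands of the promoter windows. The GC box GGGCGG was present in *Kndc1*, *Mgat4a* and *Liph*, and in 68.3% of the tested genes with a window. The letters TATAAA, those of a TATA box, were present in *Spp1* (8.79% of tested genes), beginning 211 bases before the first start. The spaced pair of GAAA repeats of interferon response elements was present in *Spp1* as well (3.33%). The letters CNCCTCAG, of the kind bound by the meiotic regulator STRA8, were present in *Ly75* (11% of tested genes). GGCGCC, of the kind bound by SMAD proteins of the BMP pathway (24.6%), and the E-box CACGTG (11.5%) were in none of the 6. The promoters of *Mgat4a* and *Ly75*, the genes with the smallest fold difference, were the richest in CpG, with 35 and 21 CpG dinucleotides in the window of the first start. *Liph* had 7, *Kndc1* 4, and *Spp1* and *Phf11d* 3 each. This order was noticed in these values over 6 genes and was not tested.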
